A study of Mus musculus with 12 samples.

Results

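The chemokine ligands and chemokine receptors of B16-F10 melanoma tumors were taken as every gene of the count table whose symbol begins with Ccl, Cxcl, Cx3cl, Xcl, Ccr, Cxcr, Cx3cr, Xcr or Ackr and a number, and that had at least 10 counts summed over all tumors. The rule gave 46 of 23420 genes, made up of 31 ligands and 15 receptors. B16-F10 is a melanoma cell line of C57BL/6 origin, and it was implanted under the skin of the flank of male C57BL/6J mice. Mice entered the diets at 4 to 5 weeks of age, and were fed for 15 weeks either a Western diet with added cholesterol, which made them obese, or a matching control diet. Once tumors were palpable, mice received 10 mg/kg of anti–PD-1 (clone 29F.1A12) or isotype control antibody (clone 2A3) 3 times a week, and tumors were collected at day 16. The 12 tumors formed 4 groups of 3, with isotype and anti–PD-1 groups on each diet. All groups thus shared the implanted line, the strain and the sex, and every mouse received an antibody. RNA came from whole tumor pieces, so fewer cells of a type and less RNA per cell cannot be told apart. Nothing in the labels beyond the replicate number and a library name tells the tumors of a group apart. P values set a difference against the spread between tumors within groups, estimated over all 4 groups together.

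Chemokines are small secreted proteins that guide leukocytes along a gradient to receptors coupled to G proteins. In tumors, CXCL9 and CXCL10 are induced by interferon-γ and attract activated T cells and NK cells through CXCR3, while CCL2, CCL7 and CCL12 bring in monocytes through CCR2. CCL3, CCL4, CCL5, CCL6, CCL8 and CCL9 are inflammatory CC ligands, several of which bind CCR1 on myeloid cells, and CXCL12 is a homeostatic ligand of stromal cells with the receptors CXCR4 and ACKR3.

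The deposited counts summed to between 14022929 and 33871843 per tumor, and 13095 genes had enough counts to be tested. Of the 46 chemokine genes, 27 were among them, 19 ligands and 8 receptors, and the other 19 had too few counts. A gene was called higher or lower when its fold change was above 2 and its unadjusted P below 0.05 in the quasi-likelihood test of edgeR, and the FDR over all 13095 genes is given with most fold changes. A call thus rests on the unadjusted P, which is not printed gene by gene for groups of 3. No chemokine gene reached an FDR below 0.05 in any comparison of that test. The 7 melanoma markers, among them Mlana, Pmel and Dct, summed to between 24720 and 30283 CPM in each tumor, and 0 of the 7 were called in any of the 5 comparisons.

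The first comparison asked how anti–PD-1 changed these genes in nonobese mice, where the genes called were all lower. Ccl6, Ccl8, Ccl9, Ccl11, Ccr1 and Ccr2 were among the 7 of 27 genes tested that fell, and 0 rose, against 2.31% of all genes lower and 0.115% higher. Genes whose 3 anti–PD-1 tumors all lay below the 3 isotype tumors numbered 9 of 27, against 5.37% of all genes. An unadjusted P below 0.05 was reached by 11 genes, against 5.23% of all genes, and an FDR below 0.05 by 0, as for 0.0% of all genes. DESeq2 gave 1 gene at that FDR, Ccl6, against 0.0701% of all genes. The log2 fold change of 24 of the 27 genes was below 0, with a median of −0.71 and a range from −1.91 to 0.30, and the median over all genes tested was 0.02.

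In obese mice the direction was the opposite one. Cxcl9, Cxcl10, Ccl2, Ccl3, Ccl4, Ccl7, Ccl8 and Ccl12 were among the 9 of 27 genes upregulated by anti–PD-1, and 0 were lower, against 2.24% of all genes higher and 0.206% lower. In 10 genes the 3 anti–PD-1 tumors all lay above the isotype tumors, against 5.45% of all genes. For 11 genes the unadjusted P was below 0.05, against 7.57% of all genes, and 0 reached an FDR below 0.05, as for 0.0% of all genes. DESeq2 gave 3 genes at that FDR, Ccl2, Ccl7 and Cxcl10, against 0.802% of all genes. The log2 fold change was above 0 in 24 of 27 genes, with a median of 0.81 and a range from −0.81 to 2.36, and the median over all genes tested was −0.01.

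**Figure D1:**
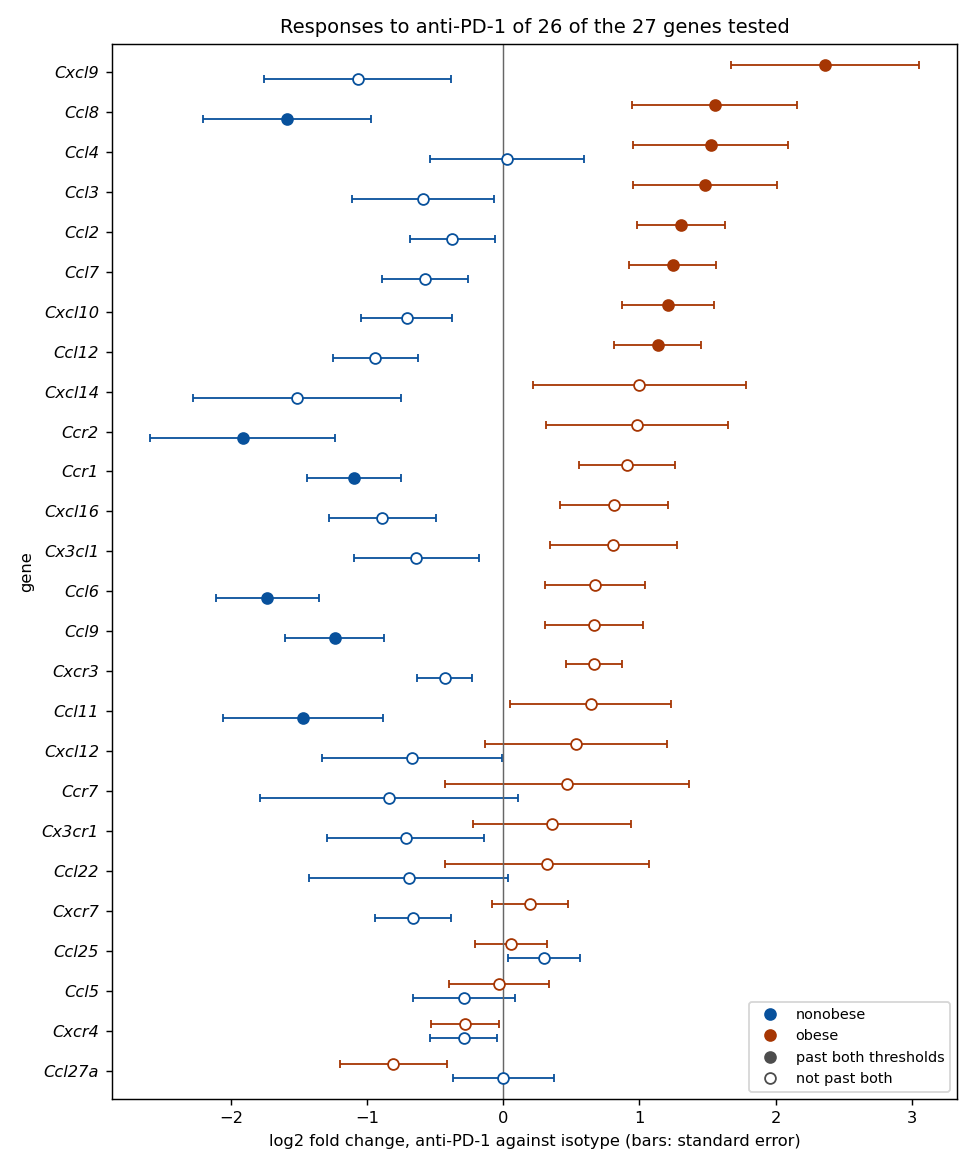
Log2 fold change of anti–PD-1 against isotype on the horizontal axis for 26 of the 27 genes tested, in nonobese mice (blue) and in obese mice (brown), with bars for the standard error and filled points for genes past both the fold and the P threshold. Most genes lie left of 0 in nonobese mice and right of 0 in obese mice, with Cxcl9 at −1.07 and 2.36, while Ccl5, Ccl25 and Cxcr4 lie close to 0 in both.

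The 2 responses were then compared with each other in the same model. The response was higher in obese than in nonobese mice for 17 of 27 genes and lower for 0, against 4.93% and 0.832% of all genes, and an FDR below 0.05 was reached by 0, as for 0.0% of all genes. An unadjusted P below 0.05 was reached by 18 genes, against 12.9% of all genes, and DESeq2 gave 9 genes at an FDR below 0.05, against 2.16% of all genes. The 17 were 13 ligands and 4 receptors. The log2 difference was above 0 in 25 of 27 genes with a median of 1.70, and the median over all genes was −0.04. With each tumor left out in turn, 14 of the 17 passed the thresholds every time, and Ccl11, Cxcl14 and Cx3cl1 did not.

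Among the genes tested, the mean level per kb of exon over all tumors was highest for Ccl8, at 11.9 ± 9.31 CPM per kb (SD, n = 12), followed by Ccl6 at 9.57 ± 5.18, Ccl5 at 5.71 ± 2.56, Cxcl10 at 5.36 ± 2.93 and Ccl7 at 4.52 ± 1.88. Cxcl9, Ccl2, Ccl12, Cxcr4 and Ccl9 came next, between 3.96 and 2.96 CPM per kb, so 9 of the 10 highest genes were ligands. Neighbors in this order differed by less than the spread between tumors. The order was not the same in every group. In nonobese tumors Ccl6 was above Ccl8, at 15.0 against 12.6 CPM per kb under isotype and 4.50 against 4.16 under anti–PD-1. In obese tumors it was below Ccl8, at 7.21 against 7.92 under isotype and 11.6 against 23.1 under anti–PD-1. Cxcl9 had 9.83 CPM per kb in obese anti–PD-1 tumors, above Ccl5 at 7.25 and Cxcl10 at 8.73, but 1.32 CPM per kb in nonobese anti–PD-1 tumors, below Ccl5 at 3.67 and Cxcl10 at 3.40. Exon lengths were taken from GENCODE, which may differ from the gene models the reads were counted on.

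**Figure D2:**
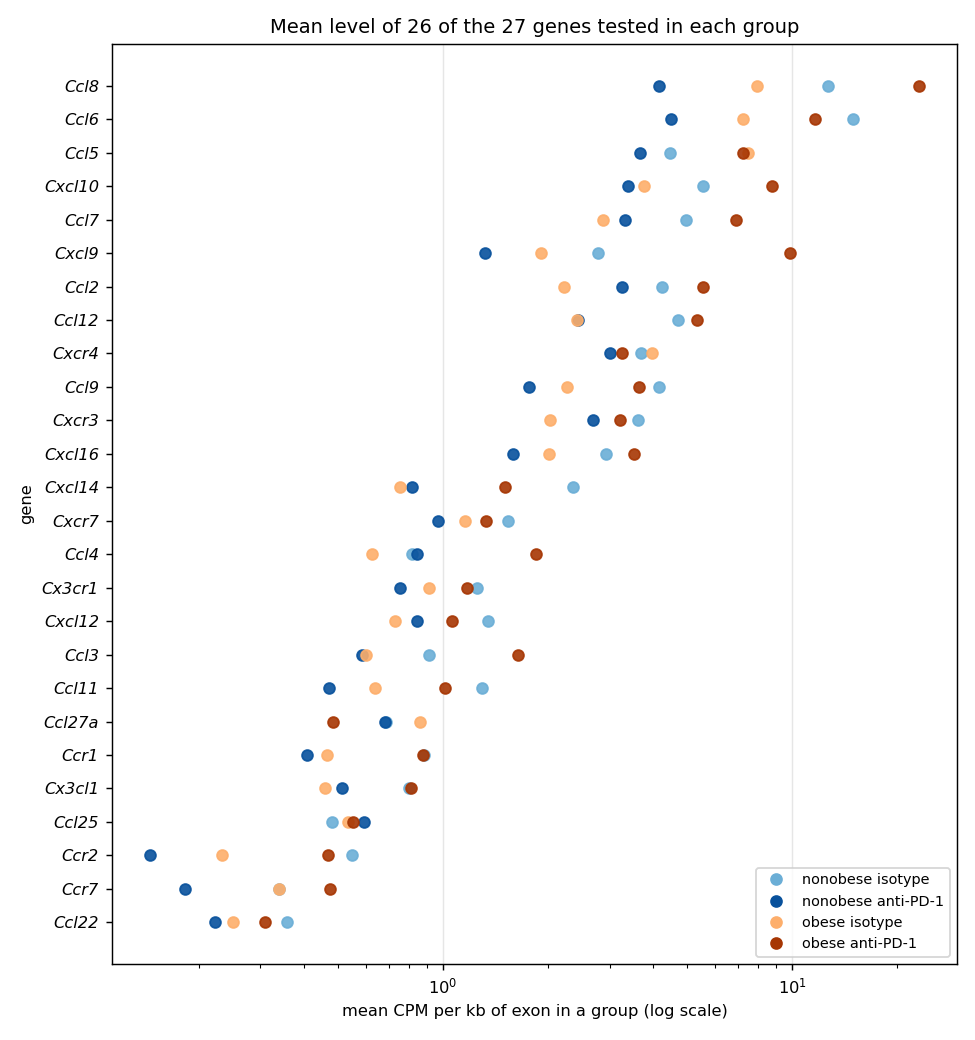
Mean level of 26 of the 27 genes tested, in CPM per kb of exon on a log scale, with 1 dot per group of 3 tumors (a dot can cover another) and genes ordered by their mean over 12 tumors. The obese anti–PD-1 dot is the rightmost for Cxcl9, Cxcl10 and Ccl8, and the nonobese anti–PD-1 dot is the leftmost for Ccl8, Ccl6, Ccr2 and Ccr1.

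Cxcl9 and Cxcl10, the interferon-inducible ligands of CXCR3, lie next to each other on chromosome 5, and they are shown because Cxcl9 had the largest fold change of the 27 genes in obese mice. The promoter windows run from 250 bases before to 50 bases after the start of the gene, on the minus strand, at chr5:92328030-92328329 for Cxcl9 and chr5:92348840-92349139 for Cxcl10 (RefSeq, GRCm38.p6, the assembly of mm10). Capitals mark the match to a core of the interferon-stimulated response element, searched on both strands as GAAA, any 2 bases, then GAAA, which begins at −213 from the start of Cxcl10.
Cxcl10: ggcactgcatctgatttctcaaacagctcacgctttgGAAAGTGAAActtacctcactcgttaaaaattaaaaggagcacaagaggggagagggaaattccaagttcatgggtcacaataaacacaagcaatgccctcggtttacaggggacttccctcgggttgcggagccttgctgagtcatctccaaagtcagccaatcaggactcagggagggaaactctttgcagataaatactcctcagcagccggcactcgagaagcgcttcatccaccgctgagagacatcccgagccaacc
Cxcl9: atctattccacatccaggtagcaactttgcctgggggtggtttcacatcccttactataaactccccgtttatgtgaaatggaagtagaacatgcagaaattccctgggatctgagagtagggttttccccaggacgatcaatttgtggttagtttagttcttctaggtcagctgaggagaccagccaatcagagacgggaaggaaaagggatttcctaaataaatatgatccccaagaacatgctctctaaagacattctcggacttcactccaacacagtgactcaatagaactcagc
These letters occurred in 3.44% of 32851 promoter windows of that length and in 3 of the 36 windows of chemokine genes, those of Cxcl10, Cxcl14 and Ccl19. A window was given for 33 of the 46 genes. The letters of the interferon-γ activated site, TTCNNNGAA, occurred in 8.3% of all windows and in 2 of the 36, those of Cxcl14 and Ccl17. Neither set of letters is in the Cxcl9 window, which says nothing of sites elsewhere.

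Cxcl9 had 5.40, 9.70 and 10.1 CPM in the nonobese isotype tumors, replicates 1 to 3 in this and the following sentences, and 0.762, 2.94 and 8.20 CPM in the nonobese anti–PD-1 tumors. It had 5.64, 4.55 and 7.07 CPM in the obese isotype tumors and 6.56, 52.4 and 30.0 CPM in the obese anti–PD-1 tumors. Replicates 2 and 3 of the obese anti–PD-1 group stood above every other tumor, while replicate 1 lay within the range of its isotype controls. The log2 fold change in obese mice was 2.36 ± 0.69 (SE, FDR = 0.33, edgeR), and it stayed past the thresholds with each tumor left out in turn, at 1.69 without replicate 2 and 2.85 without replicate 1. In nonobese mice it was −1.07 ± 0.69 (FDR = 0.929, edgeR), which did not pass, but it passed at −2.11 without replicate 3 of the nonobese anti–PD-1 group and at −1.32 with the replicate numbers as a block. The difference between the responses was 3.43 ± 0.97 (FDR = 0.169, edgeR).

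Cxcl10 had 7.90, 15.4 and 14.2 CPM under isotype and 7.07, 6.06 and 9.81 CPM under anti–PD-1 in nonobese mice. Obese mice had 8.03, 7.62 and 9.84 CPM under isotype and 9.87, 28.0 and 21.1 CPM under anti–PD-1. The obese groups did not overlap, but the lowest anti–PD-1 tumor lay just above the highest isotype tumor. Cxcl10 rose in obese mice by 1.21 ± 0.34 on the log2 scale (FDR = 0.295, edgeR), and its call was lost without replicate 2 of the obese anti–PD-1 group. Its exons overlap those of Art3 on the opposite strand, and whether reads were counted by strand is not given in the sources used here. Art3 had between 38 and 141 counts per tumor, with a log2 fold change of 0.57 ± 0.25 (FDR = 0.636, edgeR) in obese mice. Cxcl11, the other CXCR3 ligand, is annotated as a transcribed pseudogene and had 12 counts over all 12 tumors.

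Cxcr3, the receptor of activated T cells and NK cells, had 5.78, 6.85 and 6.13 CPM under isotype and 4.68, 4.08 and 5.17 CPM under anti–PD-1 in nonobese mice. In obese mice it had 3.20, 3.43 and 3.87 CPM under isotype and 5.78, 4.62 and 6.25 CPM under anti–PD-1. The groups did not overlap in either diet, but the changes stayed below 2-fold, with log2 fold changes of −0.43 ± 0.20 (FDR = 0.929, edgeR) and 0.67 ± 0.21 (FDR = 0.387, edgeR). The difference between the responses passed the thresholds, at 1.10 ± 0.29 (FDR = 0.141, edgeR).

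**Figure D3:**
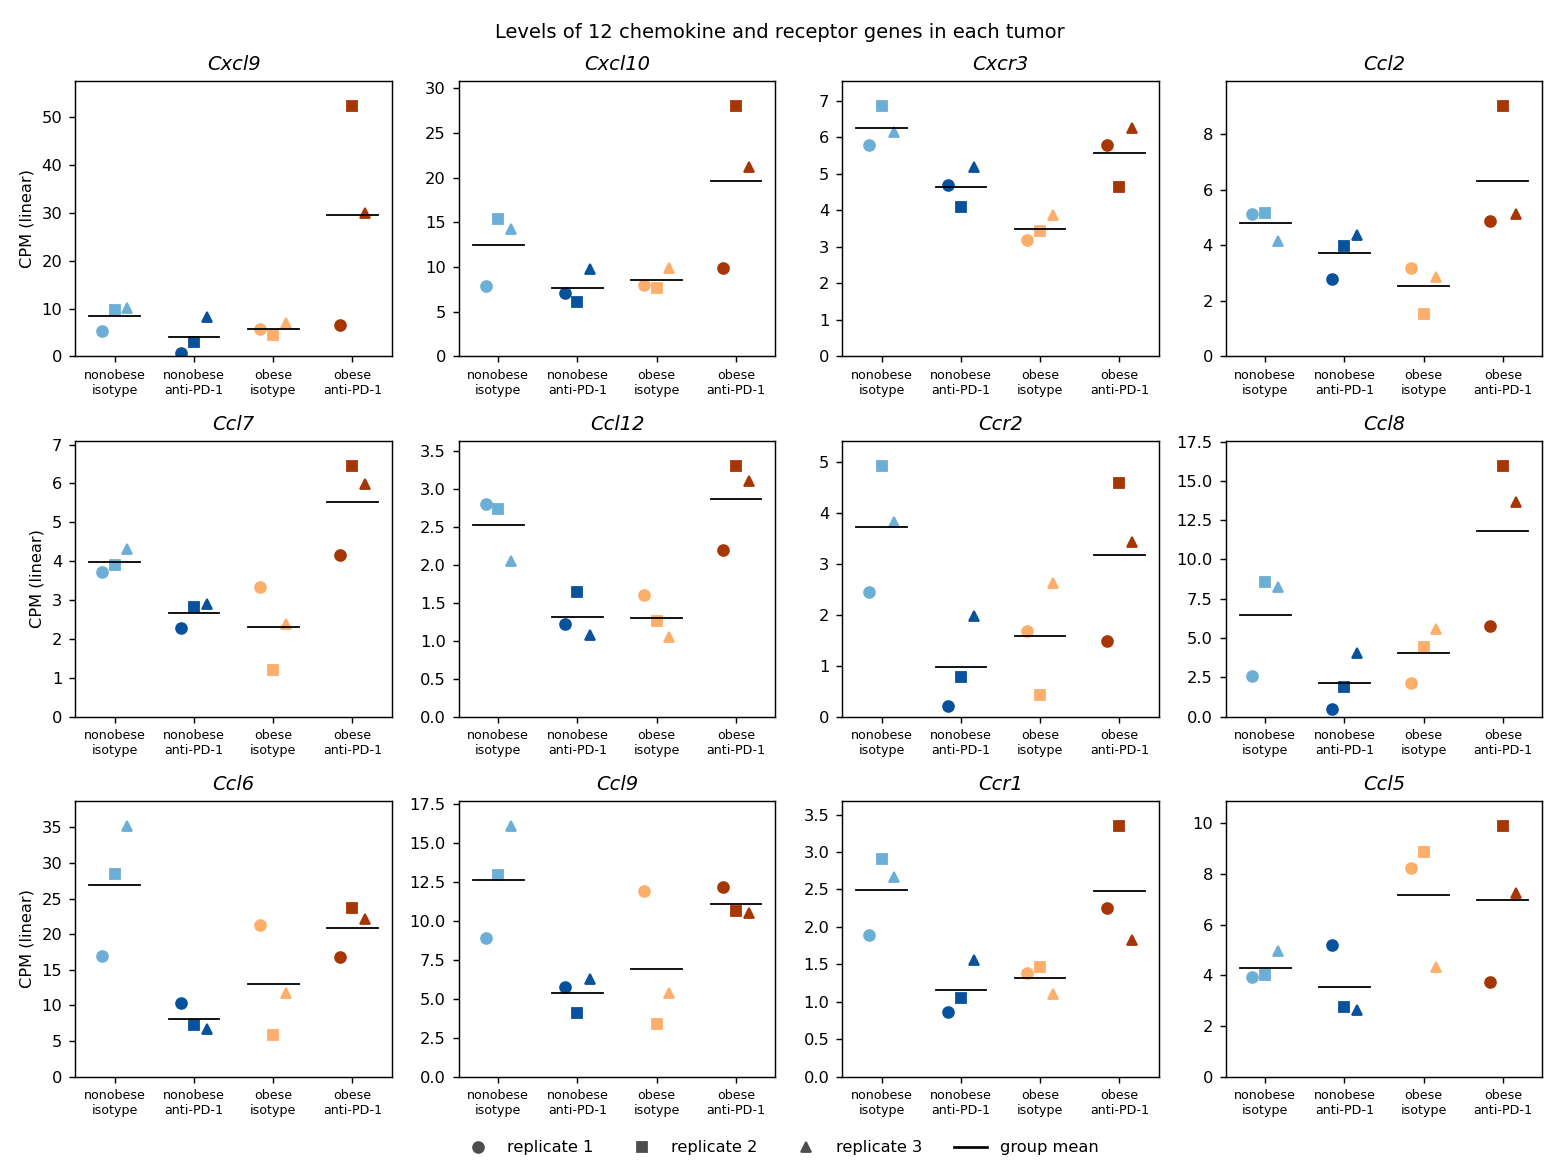
CPM on a linear axis in each tumor for 12 genes, namely genes of the CXCR3, CCR2 and CCR1 axes and the CC ligands Ccl5 and Ccl8. Each gene has 1 panel, with symbols for the replicate numbers and lines for the group means. In the obese anti–PD-1 group, replicates 2 and 3 lie above replicate 1 for Cxcl9 (52.4 and 30.0 against 6.56) and for the other genes shown except Cxcr3, Ccr1 and Ccl9 (10.6 and 10.5 against 12.2).

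The 3 monocyte attractants of the CCR2 axis rose together in obese mice. Ccl2 had 3.20, 1.54 and 2.86 CPM under isotype and 4.86, 9.001 and 5.11 CPM under anti–PD-1 in obese mice, without overlap. Its log2 fold change of 1.30 ± 0.32 (FDR = 0.225, edgeR) had the smallest P of the 27 genes in that comparison. In nonobese mice, Ccl2 had 5.11, 5.17 and 4.15 CPM under isotype and 2.80, 3.96 and 4.37 CPM under anti–PD-1, with overlap and a log2 fold change of −0.37 ± 0.31 (FDR = 0.929, edgeR). Ccl7 had 3.32, 1.19 and 2.39 CPM under isotype and 4.16, 6.44 and 5.98 CPM under anti–PD-1 in obese mice, a log2 fold change of 1.25 ± 0.32 (FDR = 0.251, edgeR). Ccl12 went from 1.60, 1.26 and 1.05 CPM to 2.19, 3.30 and 3.10 CPM, a log2 fold change of 1.13 ± 0.32 (FDR = 0.299, edgeR). Of these, Ccl12 was called with each tumor left out in turn, Ccl2 was lost without replicate 2 of the obese anti–PD-1 group, and Ccl7 without replicate 2 of the obese isotype group.

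In nonobese mice, Ccl7 and Ccl12 were lower in each anti–PD-1 tumor than in each isotype tumor, yet by less than 2-fold. Ccl7 had 3.73, 3.91 and 4.32 CPM under isotype and 2.29, 2.81 and 2.90 CPM under anti–PD-1, a log2 fold change of −0.57 ± 0.31 (FDR = 0.929, edgeR). Ccl12 had 2.79, 2.73 and 2.04 CPM under isotype and 1.22, 1.64 and 1.07 CPM under anti–PD-1, a log2 fold change of −0.94 ± 0.31 (FDR = 0.833, edgeR). The difference between the responses passed the thresholds for both and for Ccl2, at 1.82 ± 0.45 for Ccl7 (FDR = 0.128, edgeR), 2.07 ± 0.44 for Ccl12 and 1.68 ± 0.45 for Ccl2 (FDR = 0.146, edgeR). Ccl12 had the smallest P of the 27 genes there (FDR = 0.118, edgeR).

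Ccr2, the receptor of classical monocytes, had 2.44, 4.91 and 3.81 CPM under isotype and 0.203, 0.773 and 1.96 CPM under anti–PD-1 in nonobese mice, without overlap. It fell by 1.91 on the log2 scale, with an SE of 0.68 (FDR = 0.841, edgeR), the largest fold of the 27 genes in that comparison. Obese mice had 1.68, 0.420 and 2.63 CPM under isotype and 1.48, 4.57 and 3.42 CPM under anti–PD-1. These overlapped, and the log2 fold change of 0.98 ± 0.67 (FDR = 0.763, edgeR) did not pass. The call in nonobese mice was lost without replicate 2 of the nonobese isotype group.

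On the CCR1 axis, the macrophage ligands Ccl6 and Ccl9 fell in nonobese mice. Ccl6 had 16.9, 28.5 and 35.2 CPM under isotype and 10.4, 7.21 and 6.64 CPM under anti–PD-1 there, so the lowest isotype tumor was above the highest anti–PD-1 tumor. It fell by 1.73 on the log2 scale, with an SE of 0.38 (FDR = 0.833, edgeR), the smallest P of the 27 genes in that comparison. Ccl9 had 8.90, 12.96 and 16.1 CPM under isotype and 5.74, 4.08 and 6.24 CPM under anti–PD-1, and fell by 1.24 with an SE of 0.36 (FDR = 0.833, edgeR). Both calls held with each tumor left out in turn. Ccl6 and Ccl9 are neighbors on chromosome 11.

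In obese mice, Ccl6 and Ccl9 overlapped between the groups. Ccl6 had 21.2, 5.81 and 11.8 CPM under isotype and 16.8, 23.7 and 22.1 CPM under anti–PD-1, a log2 fold change of 0.67 ± 0.37 (FDR = 0.699, edgeR). Ccl9 had 11.9, 3.36 and 5.40 CPM under isotype and 12.2, 10.6 and 10.5 CPM under anti–PD-1, a log2 fold change of 0.67 ± 0.36 (FDR = 0.697, edgeR). Replicate 1 of the obese isotype group was high for both. The responses differed by 2.41 ± 0.53 for Ccl6 (FDR = 0.118, edgeR) and by 1.91 ± 0.51 for Ccl9 (FDR = 0.149, edgeR).

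Ccl8, an inflammatory CC ligand and the gene with the highest mean level per kb over all tumors, changed in both diets and in opposite directions. It had 2.60, 8.55 and 8.24 CPM under isotype and 0.508, 1.86 and 4.01 CPM under anti–PD-1 in nonobese mice. In obese mice it had 2.15, 4.41 and 5.59 CPM under isotype and 5.78, 15.9 and 13.6 CPM under anti–PD-1. In nonobese mice, isotype replicate 1 lay below anti–PD-1 replicate 3, and in obese mice the groups did not overlap. Ccl8 fell by 1.59 in nonobese mice with an SE of 0.62 (FDR = 0.872, edgeR) and rose by 1.55 ± 0.61 in obese mice (FDR = 0.554, edgeR). The responses differed by 3.14 ± 0.87 (FDR = 0.159, edgeR). Each of the single responses was lost with some of the tumors left out, and the difference with none of them.

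Ccr1, the receptor of myeloid cells that binds several of these ligands, had 1.89, 2.91 and 2.67 CPM under isotype and 0.864, 1.05 and 1.56 CPM under anti–PD-1 in nonobese mice. It fell by 1.10 with an SE of 0.35 (FDR = 0.833, edgeR), without overlap. In obese mice it had 1.39, 1.47 and 1.10 CPM under isotype and 2.26, 3.34 and 1.82 CPM under anti–PD-1. These did not overlap, with a log2 fold change of 0.91 ± 0.35 (FDR = 0.546, edgeR), below 2-fold. The responses differed by 2.01 ± 0.49 (FDR = 0.128, edgeR).

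Ccl3 and Ccl4, CC ligands made by activated macrophages and T cells, were at low levels. Ccl3 had 0.463, 0.630 and 0.286 CPM under isotype and 0.776, 1.62 and 1.37 CPM under anti–PD-1 in obese mice, and rose by 1.48 ± 0.53 on the log2 scale (FDR = 0.491, edgeR). Ccl4 had 0.505, 0.210 and 0.525 CPM and then 0.635, 1.28 and 1.73 CPM, and rose by 1.52 ± 0.57 (FDR = 0.53, edgeR). Neither pair of groups overlapped, but neither call held with each tumor left out in turn. Both genes passed the filter on low counts in 7 of 12 tumors, 3 of them in the obese anti–PD-1 group. Their annotated spans overlap on opposite strands. In nonobese mice the log2 fold changes were −0.59 ± 0.52 for Ccl3 (FDR = 0.929, edgeR) and 0.03 ± 0.57 for Ccl4 (FDR = 0.996, edgeR).

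Ccl5, a CC ligand made by T cells and NK cells among others, gave no call in any comparison. Over all tumors it had the third level per kb. It had 3.95, 3.997 and 4.94 CPM under isotype and 5.18, 2.75 and 2.63 CPM under anti–PD-1 in nonobese mice. Obese mice had 8.24, 8.88 and 4.34 CPM under isotype and 3.74, 9.89 and 7.25 CPM under anti–PD-1. The groups overlapped in both diets, with log2 fold changes of −0.29 ± 0.37 (FDR = 0.948, edgeR) and −0.03 ± 0.37 (FDR = 0.991, edgeR). The difference between the responses was 0.26 ± 0.52 (FDR = 0.863, edgeR), and a p that misses the threshold does not show that the responses of Ccl5 were alike.

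Of the remaining ligands, Ccl11, Cxcl16, Cxcl14 and Cx3cl1 passed a threshold somewhere. Ccl11, an eosinophil attractant, had 1.25, 1.70 and 1.25 CPM under isotype and 0.254, 0.247 and 1.03 CPM under anti–PD-1 in nonobese mice, and fell by 1.48 with an SE of 0.59 (FDR = 0.879, edgeR). In obese mice it had 1.01, 0.350 and 0.716 CPM and then 0.564, 1.67 and 1.05 CPM, with overlap and a log2 fold change of 0.64 ± 0.59 (FDR = 0.843, edgeR). Cxcl16, the membrane-bound ligand of CXCR6, had 4.24, 12.7 and 9.66 CPM, then 3.15, 3.96 and 7.27 CPM in nonobese mice, and 6.81, 5.81 and 5.59 CPM, then 6.35, 12.3 and 13.2 CPM in obese mice. Neither response of Cxcl16 passed both thresholds, but the difference between them did, at 1.70 ± 0.56 (FDR = 0.229, edgeR). The exons of Cxcl16 overlap Zmynd15 on the opposite strand, which had between 2 and 49 counts per tumor.

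Cxcl14, a homeostatic ligand, spread widely within groups, from 0.931 to 6.53 CPM in the nonobese isotype tumors, from 0.254 to 2.81 in the nonobese anti–PD-1 tumors, from 0.909 to 2.01 in the obese isotype tumors and from 0.846 to 4.20 in the obese anti–PD-1 tumors. The responses differed by 2.51 ± 1.10 (FDR = 0.351, edgeR). For Cx3cl1, the membrane-bound ligand of CX3CR1, they differed by 1.45 ± 0.65 (FDR = 0.371, edgeR). Its levels ran from 2.73 to 3.53 CPM and from 1.55 to 2.94 CPM in nonobese mice under isotype and anti–PD-1, and from 0.699 to 2.91 CPM and from 1.62 to 4.15 CPM in obese mice. For Ccl11 the responses differed by 2.12 ± 0.83 (FDR = 0.308, edgeR). All 3 of these differences were lost when some single tumors were left out.

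The other genes tested were called in no comparison. Cxcl12, the stromal ligand, had 7.77, 11.99 and 13.2 CPM under isotype and 1.68, 3.87 and 15.1 CPM under anti–PD-1 in nonobese mice, where replicate 3 under anti–PD-1 was the highest of all 12 tumors. Its receptor Cxcr4 stayed between 3.26 and 7.83 CPM in all tumors, with log2 fold changes of −0.29 ± 0.25 in nonobese mice (FDR = 0.929, edgeR) and −0.28 ± 0.25 in obese mice (FDR = 0.838, edgeR). Cxcr7, an older symbol for Ackr3, the scavenging receptor of CXCL12, had 4.53, 5.61 and 5.28 CPM under isotype and 3.25, 3.65 and 2.81 CPM under anti–PD-1 in nonobese mice. These did not overlap, but the log2 fold change of −0.66 ± 0.28 (FDR = 0.912, edgeR) was below 2-fold.

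Cx3cr1, a receptor of macrophages and monocytes, ran from 1.32 to 8.62 CPM, and its groups overlapped in every comparison. Ccr7, the receptor that takes dendritic cells and naive T cells to lymph nodes, ran from 0.0699 to 2.05 CPM, with both extremes in the obese groups. Ccl22, a dendritic cell ligand of CCR4, ran from 0.141 to 1.32 CPM. Ccl25, a mucosal ligand, stayed between 3.07 and 5.79 CPM, and Ccl27a, a skin ligand, between 0.776 and 2.57 CPM. The exons of Ccl25 and Ccl27a overlap Elavl1 and Il11ra1 on the opposite strand, which had at least 1646 and 366 counts in each tumor, so part of the reads near them cannot be assigned without the strand setting.

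The 19 genes with too few counts to test had between 12 and 106 counts over 12 tumors. Cxcl1, Cxcl2, Cxcl3 and Cxcl5, the neutrophil attractants that signal through CXCR2, had 36, 26, 27 and 47 counts, and Cxcr2 had 12. In obese anti–PD-1 replicate 1, Cxcl2 had 10 counts, Cxcl3 had 12 and Cxcr2 had 6, the highest tumor for each, and Cxcl5 was highest with 20 counts in obese isotype replicate 1. Cxcr6, the receptor of effector and resident T cells for CXCL16, had 1, 26 and 15 counts in the obese anti–PD-1 tumors and between 0 and 7 in every other tumor, and Xcr1, the receptor of cross-presenting dendritic cells, summed to 24 counts in that group and to between 6 and 11 in the others. Its ligand Xcl1 had 44 counts in all. Ccl1, a ligand of CCR8, had 27 of its 35 counts in the nonobese isotype group, and Ccl24, an eosinophil attractant, 18 of its 34. The homeostatic ligands Ccl19 and Cxcl13 had 17 and 24 counts, Cxcr5, the receptor of CXCL13 on B cells, 56, Ccl17 and its receptor Ccr4 16 and 22, Ccl28 and its receptor Ccr10 106 and 52, and Ccr9 15. None of the 19 was tested in the fit reported here. With no filter on low counts, Ccl1 passed the thresholds in nonobese mice, between the diets under isotype and for the difference between responses. Cxcl2 passed in obese mice, with 14 counts under anti–PD-1, 10 of them in replicate 1, against 2 under isotype. Cxcl5 passed there in the other direction, with 6 counts under anti–PD-1 against 31 under isotype. It also passed between the diets under isotype, with 31 counts in obese against 9 in nonobese mice. Cxcl11 and Cxcr6 passed between the diets under anti–PD-1, with 7 and 42 counts in obese against 0 and 7 in nonobese mice. Ccl24 passed for the difference. All of these rest on very few counts.

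Cxcl1, Cxcl2 and Cxcl3 lie side by side on chromosome 5, and the stretch around their NF-κB motif is shown because all 3 hold the same letters shortly before the start while the genes were barely detected. The motif was searched on both strands as GGGA, any base, then TTTCC, and is in capitals in the strand of the gene. The windows are chr5:90890995-90891294 for Cxcl1, chr5:90903649-90903948 for Cxcl2 and chr5:90785851-90786150 for Cxcl3, all on the plus strand (RefSeq, GRCm38.p6), and the match begins at −71, −97 and −73 from the start of the gene.
Cxcl1: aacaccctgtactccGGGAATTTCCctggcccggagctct
Cxcl2: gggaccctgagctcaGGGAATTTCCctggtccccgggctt
Cxcl3: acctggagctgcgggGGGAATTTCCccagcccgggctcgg
These letters occurred in 0.411% of 32851 windows, and in 3 of the 36 windows of chemokine genes. With GGG, any 2 bases, then TTTCC, they occurred in 1.63% of all windows and in 4 of the 36, the further one being that of Ccl9. A match is a description of the letters and no evidence that a factor binds.

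Another 12 symbols fitted the naming rule with fewer than 10 counts. Ccr3, Ccr8, Ccr6 and Cxcr1 had 7, 6, 2 and 1 counts over all tumors. Ccl20, Ccl21a, Ccl21b, Ccl21c, Ccl26, Ccl27b, Ccr1l1 and Cxcl17 had 0, and the copies of Ccl21 and Ccl27 are nearly identical, so that reads from them may not have been assigned to any. The atypical receptors Ackr1, Ackr2 and Ackr4 stand in the table under the older symbols Darc, Ccbp2 and Ccrl1, outside the rule. Their summed level was between 0.350 and 2.16 CPM per tumor, and the 1 of the 3 that was tested, Ccbp2, was not called.

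The diets were compared within each treatment, using the same groups as the responses, so these values are not independent of them. Under isotype, 1 gene differed between the diets, Ccl6, which made 1 of 27 lower and 0 higher, against 1.12% and 0.244% of all genes. Ccl6 fell by 1.03 in obese mice with an SE of 0.37 (FDR = 0.296, edgeR), and this call was lost without 4 of the 12 tumors in turn, replicates 2 and 3 of both isotype groups. In 6 genes, Cxcr3, Ccl2, Ccl7, Ccl12, Ccl11 and Ccr1, each obese isotype tumor lay below each nonobese isotype tumor, against 9.02% of all genes. Cxcr3 had the smallest P, with a log2 fold change of −0.84 ± 0.20 (FDR = 0.169, edgeR), below 2-fold. An unadjusted P below 0.05 was reached by 7 genes, against 13.3% of all genes, and an FDR below 0.05 by 0, as for 0.0% of all genes. DESeq2 gave 1 gene at that FDR, Cxcr3, against 1.85% of all genes. The median log2 fold change was −0.68, with 22 of 27 genes below 0, and 0.01 over all genes.

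Under anti–PD-1, 12 of the 27 genes were higher in obese than in nonobese tumors and 0 were lower, against 3.69% and 0.565% of all genes. Among them were Cxcl9, Cxcl10, Cxcl16, Ccl3, Ccl6, Ccl7, Ccl8, Ccl9, Ccl12, Ccr1 and Ccr2. Cxcl9 rose most, by 2.90 ± 0.71 on the log2 scale (FDR = 0.108, edgeR), followed by Ccl8 with 2.47 ± 0.63 (FDR = 0.126, edgeR). Ccr2 was higher by 1.69 ± 0.68 (FDR = 0.398, edgeR), Ccl6 by 1.38 ± 0.38 (FDR = 0.158, edgeR) and Cxcl10 by 1.37 ± 0.34 (FDR = 0.114, edgeR). In 10 genes each obese tumor lay above each nonobese tumor, against 6.54% of all genes. An unadjusted P below 0.05 was reached by 14 genes, against 10.3% of all genes, and an FDR below 0.05 by 0, against 0.382% of all genes, while DESeq2 gave 4 genes at that FDR, Ccl6, Ccl8, Cxcl9 and Cxcl10, against 2.06% of all genes.

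In this comparison the replicate numbers paired the tumors by the rule given in the processing, and once these numbers entered the fit as a replicate block, 2 genes reached an FDR below 0.05, Ccl8 with 2.63 ± 0.31 (FDR = 0.00483, edgeR) and Cxcl9 with 2.94 ± 0.56 (FDR = 0.036, edgeR). Without the block, the median log2 fold change over the 27 genes was 1.06, with 25 above 0, and −0.01 over all genes. Ccl12, Ccl6, Ccl8, Cxcl10 and Cxcl9 were called with each tumor left out in turn. Ccl5 just missed the fold threshold, at 1.00 ± 0.37 (FDR = 0.36, edgeR).

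**Figure D4:**
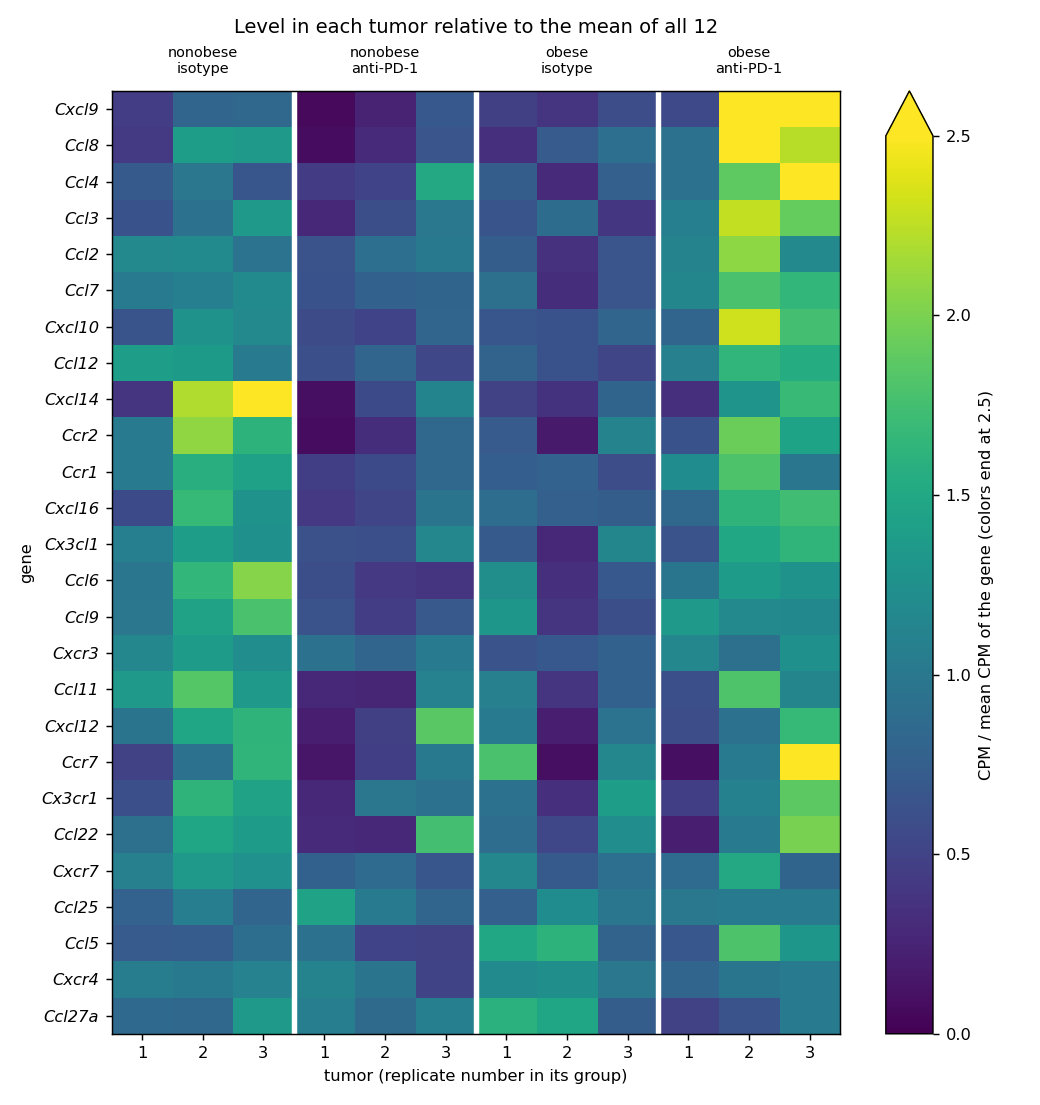
Level of 26 of the 27 genes tested in each of the 12 tumors, as CPM divided by the mean of the gene over all tumors, with colors ending at 2.5 and genes ordered by their log2 fold change in obese mice. Columns 2 and 3 of the nonobese isotype and of the obese anti–PD-1 groups are bright, with 23 to 26 of 27 genes above their own median, and column 1 of both is darker, with 11 of 27.

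Tumors of a group were uneven. Of the 27 genes, 11, 23 and 24 lay above their own median over 12 tumors in the nonobese isotype tumors and 4, 2 and 14 in the nonobese anti–PD-1 tumors. The obese isotype tumors had 9, 4 and 11 and the obese anti–PD-1 tumors 11, 23 and 26. Replicate 1 of the isotype nonobese group, replicate 3 of the nonobese anti–PD-1 group and replicate 1 of the obese anti–PD-1 group therefore stood nearer to the other treatment than their groups did. Without nonobese anti–PD-1 replicate 3, 12 genes fell in nonobese mice, and without obese anti–PD-1 replicate 1, 11 of the 27 genes rose in obese mice, Cxcl16 and Cx3cl1 being added. Without nonobese isotype replicate 2 the count in nonobese mice was 2, Ccl6 and Ccl9, and without obese anti–PD-1 replicate 2 the count in obese mice was 4. In nonobese mice, counts of 6, 3 and 5 were left without isotype replicate 3 and without anti–PD-1 replicates 1 and 2, where Ccl8 was lost each time and Ccl11 and Ccr1 in part. In obese mice, counts of 6 and 8 were left without isotype replicate 2 and without anti–PD-1 replicate 3, with Ccl4 lost in both.

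The summed level of the 31 ligands was 81.2, 136 and 143 CPM in the nonobese isotype tumors, 51.9, 51.7 and 84.5 CPM in the nonobese anti–PD-1 tumors, 93.9, 58.1 and 77.2 CPM in the obese isotype tumors and 89.0, 198 and 167 CPM in the obese anti–PD-1 tumors. Some markers of cells that make or follow chemokines were called too, and their part in the results was not tested. The macrophage and monocyte markers in the table (8 of a list of 9, all of them tested, Csf1r, C1qa, Cd68 and Mrc1 among them) summed to between 196 and 425 CPM in the nonobese isotype tumors, 129 and 189 CPM in the nonobese anti–PD-1 tumors, 160.4 and 267 CPM in the obese isotype tumors and 223 and 429 CPM in the obese anti–PD-1 tumors. Of these 8 markers, 4 fell in nonobese mice and 1 rose in obese mice, against 2.31% and 2.24% of all genes. The responses differed for 8 of the 8, each with a higher value in obese mice, against 4.93% of all genes.

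The T cell markers (8 of a list of 10 in the table, 7 tested) summed to between 8.25 and 20.0 CPM in the obese anti–PD-1 tumors and to between 5.08 and 8.35 CPM in all other tumors. Most of the sum in the other tumors was Lck, which was called in no comparison. Lck had means of 4.61, 4.69 and 4.73 CPM in the nonobese isotype, nonobese anti–PD-1 and obese isotype groups. The mean sums there were 7.19, 5.94 and 6.41 CPM. No count of calls is given for obese mice, since Cd3d, Cd3e, Cd3g, Cd8a and Cd8b1 passed the filter on low counts only through the obese anti–PD-1 tumors, where they were high. In nonobese mice 1 of the 7 fell, Cd4, against 2.31% of all genes. NK cell markers (6, of which 2 were tested) summed to between 1.20 and 7.67 CPM in the obese anti–PD-1 tumors and to at most 2.00 CPM elsewhere, and both genes tested passed the filter only with the obese anti–PD-1 tumors. Dendritic cell markers (5, of which 3 were tested) summed to between 6.77 and 15.2 CPM. Of them, 1 was called lower in nonobese and 1 higher in obese mice, against 2.31% and 2.24% of all genes. Neutrophil markers (5 of a list of 6 in the table, 1 tested) summed to between 0.610 and 4.70 CPM, with 0 called.

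Markers of cells outside the immune system were called as well. Of all genes tested, 2.31% were called lower in nonobese mice and 2.24% higher in obese mice. The 7 fibroblast markers summed to between 624 and 2816 CPM in the nonobese isotype tumors, 291 and 568 CPM in the nonobese anti–PD-1 tumors, 210.5 and 1114 CPM in the obese isotype tumors and 431 and 1875 CPM in the obese anti–PD-1 tumors, with 5 of 7 called lower in nonobese mice and 0 of 7 in obese mice. The 5 adipocyte markers, Adipoq and Plin1 among them, summed to between 31.3 and 64.4 CPM in the obese anti–PD-1 tumors and to at most 29.1 CPM elsewhere, and 5 of 5 rose in obese mice, although Plin1 passed the filter only through the obese anti–PD-1 tumors, while 2 of 5, Adipoq and Cidec, fell in nonobese mice. Of 6 endothelial markers 1 fell in nonobese mice, and of 5 skeletal muscle markers, which summed to between 6.96 and 468 CPM, 1 rose in obese mice. No marker of any list was at 0 in all tumors.

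**Figure D5:**
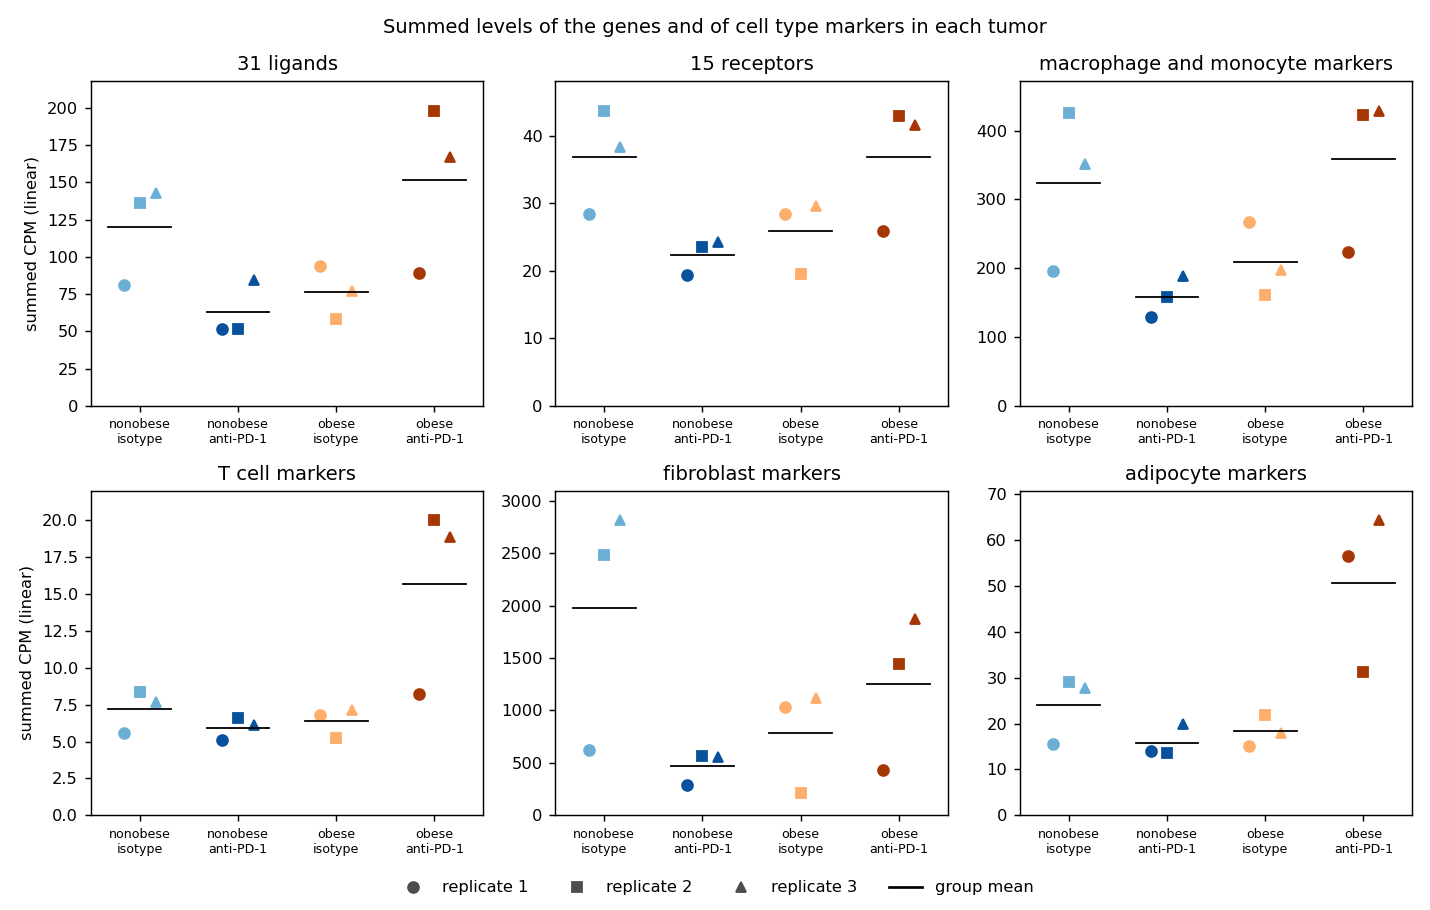
Summed CPM on a linear axis in each tumor for the 31 ligands, the 15 receptors and 4 lists of cell type markers, with symbols for the replicate numbers and lines for the group means. Ligands, receptors, macrophage markers and T cell markers are lower in replicate 1 than in replicates 2 and 3 of the obese anti–PD-1 group (ligands 89.0 against 198 and 167), while the adipocyte markers of that replicate are not.

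Other genes of chemokine signaling were described from lists that the rule did not use. The shares of all genes to set beside their calls were 2.31% lower in nonobese mice and 2.24% higher in obese mice. Of 9 ligands and receptors with other names, 4 fell in nonobese mice and 1 rose in obese mice, Cd74, the receptor of MIF, by 1.64 ± 0.53 on the log2 scale (FDR = 0.423, edgeR). Pf4, which encodes CXCL4, fell in nonobese mice by 1.65 (FDR = 0.671, edgeR), and its log2 fold change in obese mice was 0.86 (FDR = 0.517, edgeR), below 2-fold. Of 18 signal transducers of chemokine receptors, 3 fell in nonobese mice and 5 rose in obese mice, with medians of −0.33 and 0.43. Rac2, a small GTPase of leukocytes, rose by 1.65 in obese mice (FDR = 0.281, edgeR), and Dock2, which activates Rac in leukocytes, fell by 1.22 in nonobese mice (FDR = 0.841, edgeR) and rose by 1.15 in obese mice (FDR = 0.525, edgeR). The G protein subunits Gnai2 and Gnb1, which most cells express, had log2 fold changes between −0.02 and 0.10 in both.

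Of 12 genes of interferon and NF-κB signaling, 10 were tested, 0 of them were called in nonobese mice and 1, Irf1, an interferon-induced transcription factor, rose in obese mice, by 1.00 ± 0.40 (FDR = 0.561, edgeR). Among all genes, 2.24% were called higher there. Ifng itself had 1, 12 and 6 counts in the obese anti–PD-1 tumors and at most 4 in any other tumor, too few to test.

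Many of these genes lie in clusters, so neighbors are not independent. On chromosome 11, Ccl2, Ccl7, Ccl11, Ccl12, Ccl8 and Ccl1 lie within 144 kb (82035577 to 82179812), and of the 5 tested 2 fell in nonobese mice, against 2.31% of all genes, and 4 rose in obese mice, against 2.24%. Further along, Ccl5, Ccl9, Ccl6, Ccl3 and Ccl4 lie within 139 kb (83525778 to 83664683), where Ccl9 and Ccl6 fell in nonobese mice and Ccl3 and Ccl4 rose in obese mice. The receptors Ccr1 and Ccr2, both on chromosome 9, fell in nonobese mice. On chromosome 5, Cxcl9 and Cxcl10 both rose in obese mice within a cluster of 42.0 kb (92321331 to 92363296).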

How the data were processed

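RNA of 12 tumors was sequenced as 100-bp single-end reads from a stranded mRNA library. The authors mapped reads to mm10 with STAR 2.7.0f, counted them per gene with HTSeq 0.9.1 and deposited raw counts, which are not normalized. The gene annotation and the strand setting of the counting are not given in the sources used here, and genes that overlap on opposite strands or have near-identical copies are uncertain. Every column was matched to a tumor by its name.

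Counts were scaled by TMM, filtered by filterByExpr (at least 0.477 CPM in at least 3 tumors, with its rule on total counts) and fitted with edgeR 4.0.16 under R 4.3.3, with 4 group means and 8 residual degrees of freedom, using the earlier form of glmQLFit. Totals of 14022929 to 33871843 counts made 1 CPM worth 14.2 to 34.0 reads. Genes past a fold of 2 and an unadjusted P of 0.05, the thresholds of the study, were called, and Benjamini-Hochberg FDR values were computed over 13095 genes. Standard errors come from the F statistic. CPM values use the TMM library sizes. In a test on simulated data made for the obese response, it called 99% of genes changed 4-fold and 50% of genes changed 2-fold, which is the threshold itself, with 105 unchanged genes called and 8 at an FDR below 0.05.

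Alternatives were DESeq2 1.42.0, RLE scaling, no filter, a mean of at least 1 CPM, the current glmQLFit, the tumors compared alone, a replicate block and each tumor left out. Replicate numbers were held to pair tumors where the deviations of each same-numbered pair correlated above 0.1. This was so for obese against nonobese under anti–PD-1 (0.111 to 0.443, 3 pairs) and for no other comparison. Nothing in the labels says what a number stands for.

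Genes were named when called in a comparison, among the 5 smallest P values in one, among the 10 highest per kb, or by a fixed role. The genes and lists were chosen with earlier results of these data known. Coordinates and promoters are from RefSeq (GRCm38.p6) and exon lengths from GENCODE M21. Values of 2 genes are not reported here.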

Additional observations from a re-analysis of the deposited data

Results flagged for a closer look

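The response to anti–PD-1 differed between obese and nonobese mice for 17 of the 27 genes tested, each with a higher value in obese mice, against 4.93% of all genes higher and 0.832% lower. Among them, the log2 differences were 3.43 for Cxcl9, 3.14 for Ccl8, 2.90 for Ccr2, 2.51 for Cxcl14, 2.41 for Ccl6, 2.12 for Ccl11, 2.07 for Ccl12, 2.07 for Ccl3, 2.01 for Ccr1, 1.92 for Cxcl10, 1.91 for Ccl9, 1.82 for Ccl7, 1.70 for Cxcl16, 1.68 for Ccl2, 1.45 for Cx3cl1 and 1.10 for Cxcr3. Each came from a test of the difference itself in edgeR, at a fold above 2 and an unadjusted P below 0.05, with FDR values between 0.118 and 0.371. As all 4 groups enter each difference, an unusual tumor in any group enters it too.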

How the results depend on the processing

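Under DESeq2, genes with an FDR below 0.05 numbered 1 in nonobese mice, 3 in obese mice, 1 between diets under isotype, 4 between diets under anti–PD-1 and 9 for the difference between responses, against 0 for each in edgeR. Without a filter they numbered 1 between diets under anti–PD-1 (Cxcl9) and 1 for the difference (Ccl6). With the replicate block they numbered 2 and 1 in those comparisons, the latter being Ccl8. For the fits without a filter and with the block, the share of all genes at that FDR is not given. Calls between diets under isotype numbered 1, against 2 under DESeq2, 4 without a filter, 2 with the block and 4 with only the 6 tumors compared, and the current glmQLFit called Ccr2 in place of Ccl6. The other counts of calls stayed within 1.5 times, with 9, 9, 14 and 17 calls under the block in nonobese mice, obese mice, between diets under anti–PD-1 and for the difference. The cause of these shifts was not tested. Same-numbered tumors correlated by 0.133 on average over 18 pairs, 5 of 12 tumors correlated best with their own number, and the block lost no call.

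With single tumors left out, calls numbered 2 to 12 in nonobese mice (lowest without nonobese isotype replicate 2, highest without nonobese anti–PD-1 replicate 3), 4 to 13 in obese mice (without obese anti–PD-1 replicates 2 and 1, the latter 11 among the 27 genes), 0 to 5 between diets under isotype, 8 to 17 between diets under anti–PD-1 and 14 to 21 for the difference. These fits tested 28 to 30 genes, and the added genes entered through the filter. Among the 27 genes the upper limits were 12, 11, 5, 16 and 20. FDR counts ran from 0 to 1 in obese mice, 0 to 3 between diets under anti–PD-1, 0 to 4 for the difference and stayed at 0 otherwise. The shares of all genes in these fits are not given. Of 135 values (27 genes in 5 comparisons), 17 turned sign under at least 1 alternative, with log2 values between −0.24 and 0.54, and 0 of the 46 called values did. Ccl4 in nonobese mice was −0.039 under the current glmQLFit, −0.15 under the replicate block and −0.75 to 0.30 with single tumors left out, lowest without nonobese anti–PD-1 replicate 3. Ccl5 in obese mice was 0.021 under the current glmQLFit and −0.35 to 0.29 with single tumors left out, and its difference between responses was −0.062 to 0.66, lowest without obese anti–PD-1 replicate 2. The cause was not tested. Too few counts kept 19 genes out of the reported test.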
